A study of Mus musculus with 12 samples.

Results

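The 35 genes described here make and handle sterols and fatty acids. They comprise 17 enzymes of sterol synthesis, 6 genes of sterol sensing and transport, 10 genes of fatty acid synthesis, desaturation and activation, and 2 cholesterol exporters, Abca1 and Abcg1, that are targets of the liver X receptors (LXR). The members came from a list of names and were looked up under the gene names of the array design, where methylsterol monooxygenase, now Msmo1, is still called Sc4mol. All 35 were measured and belonged to the 17925 genes tested, among 27597 gene names on the array. A gene was represented by its brightest probe on average, and every member's probe was well above background on all 12 arrays.

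RNA came from naive CD4+CD62L+ T cells of C57BL/6 mice, isolated from spleen and lymph nodes with magnetic beads, activated through CD3 and CD28, and differentiated in culture over 5 days. Th9 stim cultures were Th9 cultures that were then restimulated with anti-CD3 at 1 µg/ml for 6 h. Th9 cultures were given IL-4 (20 ng/ml), TGF-β (2 ng/ml) and anti-IFN-γ, with IL-4 and TGF-β added again when the cultures were expanded. Th2 cultures had IL-4 (20 ng/ml) and anti-IFN-γ. Treg cultures had TGF-β (2 ng/ml) and anti-IL-4, with IL-2 at expansion. Each group had 3 one-colour arrays, and it is not stated whether these stem from separate animals or cultures, so the p-values measure no more than the spread among these arrays, part or all of which may be technical.

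Cells build cholesterol from acetyl-CoA through mevalonate, farnesyl diphosphate, squalene and lanosterol. The transcription factors SREBP-1 and SREBP-2, encoded by Srebf1 and Srebf2, are escorted by Scap from the endoplasmic reticulum when sterols are scarce and then switch on sterol and fatty acid genes, while Insig proteins hold Scap back when sterols are plentiful. LXRs respond to oxidised sterols and switch on cholesterol export. T cells that start to divide are known to raise SREBP-driven synthesis for new membranes.

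The levels below are log2 signals relative to the 75th percentile of the same array, so that a step of 1 is a 2-fold change, and they are compared between groups only within a gene. Between 59.85% and 63.68% of probes per array were well above background, and no probe was saturated. The lineage genes Il9 and Foxp3 followed the labels, while the Th2 genes Gata3 and Il4 were not highest in Th2 cells. Gata3 averaged 5.45 in Th9 stim, 4.96 in Th9, 4.71 in Th2 and 3.11 in Treg cells. Il4 averaged 7.92 in Th9 stim, 3.9 in Th9 and 4.97 in Th2 cells, and was above background on 1 of 3 Treg arrays. Il9 was well above background on all Th9 stim and Th9 arrays and on no Th2 or Treg array, and Foxp3 averaged 0.53 ± 0.19 (SD, n = 3) in Treg cells, -2.04 ± 0.09 in Th9 cells and was not above background in Th2 cells. Cd3e and Cd4 were above background on all 12 arrays. The Treg arrays also carried more signal of B cell markers and, on average, of myeloid, dendritic, mast cell and basophil markers. The mean level of 10 B cell markers was -3.01 to -2.60 on Th9 arrays and -3.89 to -3.28 on Th2 arrays, against 0.43 to 0.71 on Treg arrays. Compared with Treg cells, 9 of these markers were lower in Th9 cells and all 10 in Th2 cells. Of 8 tested myeloid and dendritic cell markers 4 were lower in each of these comparisons and 2 higher, Itgam and Lyz2 were above background on Treg arrays only, and S100a8 and S100a9 on no array. Of 6 CD8 T and natural killer cell markers Cd8a, Cd8b1, Klrk1 and Nkg7 were above background on all 12 arrays, Klrb1c on 7 and Ncr1 on no array. The mean level of the 5 tested was not higher on Treg arrays. It was 0.79 to 1.05 on Th9 arrays, 0.02 to 0.45 on Th2 arrays and -0.22 to 0.39 on Treg arrays. Of 5 mast cell and basophil markers Fcer1a was above background on all 12 arrays, Kit on 8, Cpa3 on 5, Mcpt8 on 1 and Ms4a2 on no array. Cell cycle genes ran the other way from the B cell markers, with 14 of 15 higher in Th9 than in Treg cells and 13 of 15 higher in Th2 than in Treg cells. Beside these counts, 28.1% of all tested genes were called higher and 36.2% lower for Th9 minus Treg. For Th2 minus Treg the shares were 28.6% and 34.5% (limma, adjusted p under 0.05). The part of other cell types and of cell division in the differences from Treg cells was not tested, and in bulk RNA fewer cells of a type and less RNA per cell cannot be told apart.

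The arrays lay on 3 slides. Slide 1 held the 3 Th2 arrays and Treg array 1, slide 2 held Th9 stim arrays 1 and 2 and Treg arrays 2 and 3, and slide 3 held the 3 Th9 arrays and Th9 stim array 3. Th9 and Th2 arrays, and Th9 and Treg arrays, never shared a slide. With the slide as a block, their difference is therefore estimated through the other groups and is less precise. Th2 and Treg arrays shared slide 1 only, so their blocked difference is that of the 3 Th2 arrays from Treg array 1.

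**Figure D1:**
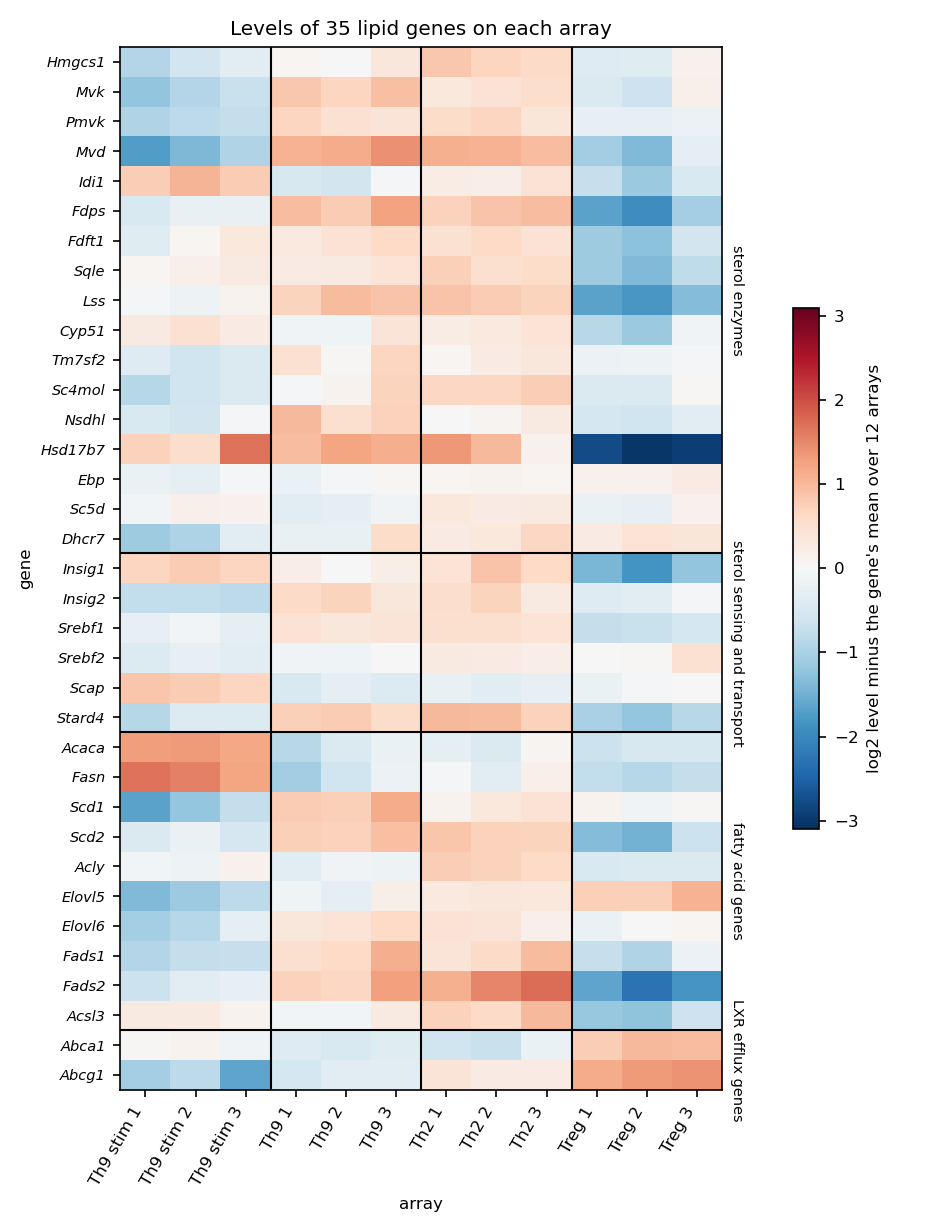
Each cell is the log2 level of a gene (rows) on an array (columns) minus that gene's mean over the 12 arrays, with red above and blue below the mean. Most sterol enzymes and several fatty acid genes are blue on the 3 Treg arrays, the exporters Abca1 and Abcg1 are red there, and Fasn and Acaca are red on the 3 Th9 stim arrays.

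Sterol synthesis enzymes were higher in Th9 and in Th2 cells than in Treg cells. Between Th9 and Treg cells 12 of the 17 enzymes were higher and 1 was lower, where 28.1% of all tested genes were called higher and 36.2% lower (64.3% in all; limma, adjusted p under 0.05). Between Th2 and Treg cells 14 of 17 were higher and limma called 0 lower (0 at an unadjusted p under 0.05), where 28.6% of all genes were called higher and 34.5% lower (63.1% in all). The median log2 difference of the 17 enzymes was 0.76 for Th9 minus Treg and 0.96 for Th2 minus Treg, and that of all genes -0.13 and -0.11. Both comparisons use the same 3 Treg arrays, so they are not independent of each other.

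Hsd17b7, a reductase that acts while methyl groups are removed from lanosterol, had levels of 1.98, 2.23 and 2.13 on the Th9 arrays and 2.35, 2.03 and 1.15 on the Th2 arrays, against -1.77, -2.01 and -1.90 on the Treg arrays. No Th9 or Th2 array came near the Treg arrays, and its log2 difference was 4.01 ± 0.33 (SE; adjusted p = 2.05e-06), a 16.1-fold difference, for Th9 minus Treg and 3.74 ± 0.33 (adjusted p = 3.43e-06) for Th2 minus Treg. The other probe of the gene gave 3.91 ± 0.24 and 3.58 ± 0.24. Fdps, which makes farnesyl diphosphate, the branch point to sterols and to the lipid anchors of proteins, had levels of 4.40, 4.24 and 4.68 on Th9 arrays and 4.15, 4.33 and 4.41 on Th2 arrays, against 1.79, 1.52 and 2.39 on Treg arrays. The groups did not overlap, and the log2 difference was 2.54 ± 0.21 (adjusted p = 1.86e-06) for Th9 minus Treg and 2.40 ± 0.21 (adjusted p = 2.89e-06) for Th2 minus Treg. The second, dimmer Fdps probe was called in neither comparison, at 0.25 ± 0.17 (adjusted p = 0.204) and 0.39 ± 0.17 (adjusted p = 0.0609).

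Lss, the enzyme that folds squalene epoxide into lanosterol, had levels of 1.67, 1.94 and 1.85 on Th9 arrays and 1.85, 1.76 and 1.67 on Th2 arrays, against -0.70, -0.84 and -0.37 on Treg arrays. Again all arrays of both helper cultures lay above all Treg arrays, by 2.46 ± 0.14 (SE; adjusted p = 1.35e-07) and 2.40 ± 0.14 (adjusted p = 1.65e-07). Mvd, the decarboxylase at the end of the mevalonate steps, had levels of 2.54, 2.61 and 2.87 on Th9 arrays and 2.56, 2.55 and 2.41 on Th2 arrays, against 0.39, 0.09 and 1.17 on Treg arrays. Treg array 3 stood above the other Treg arrays but below every Th9 and Th2 array, and the differences were 2.12 ± 0.26 (adjusted p = 4.54e-05) and 1.95 ± 0.26 (adjusted p = 8.26e-05). The enzymes that make squalene and its epoxide followed. Fdft1, squalene synthase, differed by 1.43 ± 0.21 and 1.49 ± 0.21, and Sqle, squalene epoxidase, by 1.39 ± 0.14 and 1.68 ± 0.14, with adjusted p-values of at most 0.000128 and 1.05e-05. The second probe of Fdft1 was dim and not called (-0.44 and 0.10), and with the mean of both probes the Th9 difference was 0.49 (adjusted p = 0.125).

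Smaller increases were seen in the kinases of the mevalonate steps and in the enzymes after lanosterol. Mvk, mevalonate kinase, was higher by 1.13 ± 0.20 in Th9 cells and by 0.75 ± 0.20 in Th2 cells, and Pmvk, phosphomevalonate kinase, by 0.74 ± 0.11 and 0.77 ± 0.11. Nsdhl, a dehydrogenase of lanosterol demethylation, was higher by 1.25 ± 0.17 and 0.63 ± 0.17, although 1 of its 4 probes gave -0.81 and -0.83, each called in the opposite direction. Cyp51, lanosterol demethylase, was higher by 0.76 ± 0.24 (adjusted p = 0.0153) and 1.03 ± 0.24 (adjusted p = 0.00302). Sc4mol was higher by 0.53 ± 0.20 (adjusted p = 0.0418) in Th9 cells and by 0.96 ± 0.20 (adjusted p = 0.00181) in Th2 cells, against Treg cells in both cases. Tm7sf2, a sterol reductase, passed only for Th9 minus Treg (0.51 ± 0.15, adjusted p = 0.0137; 0.34 ± 0.15, adjusted p = 0.0784, for Th2 minus Treg), which does not show that these differences differ.

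Hmgcs1, Idi1 and Sc5d, called higher in Th2 than in Treg cells, missed the threshold between Th9 and Treg cells. For Hmgcs1, which makes hydroxymethylglutaryl-CoA ahead of mevalonate, the log2 difference was 0.34 ± 0.19 (95% interval -0.07 to 0.75; adjusted p = 0.132) for Th9 minus Treg and 0.90 ± 0.19 (adjusted p = 0.00146) for Th2 minus Treg. Idi1, an isomerase of the isoprenoid building block, gave 0.39 ± 0.19 (adjusted p = 0.0889) and 1.07 ± 0.19 (adjusted p = 0.000534), and Sc5d, a sterol desaturase, -0.15 ± 0.12 (adjusted p = 0.3) and 0.39 ± 0.12 (adjusted p = 0.0156). The second Sc5d probe was called lower in both, at -0.63 ± 0.14 (adjusted p = 0.00253) and -0.91 ± 0.14 (adjusted p = 0.00021), so the direction for Sc5d is uncertain. With the mean of all probes Hmgcs1 (0.51, adjusted p = 0.023) and Idi1 (0.43, adjusted p = 0.0246) were also called higher for Th9 minus Treg, and so they were without Treg array 3 (0.52, adjusted p = 0.0257, and 0.54, adjusted p = 0.0315). Both remaining enzymes act late in the pathway. Ebp, a sterol isomerase, was lower in Th9 than in Treg cells by a small margin (-0.26 ± 0.10, adjusted p = 0.0452) and was not called between Th2 and Treg cells (-0.10 ± 0.10). Dhcr7, the reductase that yields cholesterol in one branch, was called in neither, at -0.31 ± 0.24 (interval -0.85 to 0.23) and 0.06 ± 0.24 (interval -0.48 to 0.60).

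Within slide 1, the 3 Th2 arrays against Treg array 1 gave positive differences for 16 of the 17 enzymes with a median of 1.09. These are also the estimates with the slide as a block. Under it 13 were called higher in Th2 cells, without Sc5d (0.49, adjusted p = 0.0507). Between Th9 and Treg cells the slide block left 5 enzymes called, all higher: Hsd17b7 (2.99, adjusted p = 0.00223), Fdps (2.36), Lss (2.20), Mvd (1.40, adjusted p = 0.0433) and Sqle (1.22). The blocked values of those that lost their call were 0.60 (adjusted p = 0.0556) for Pmvk, 0.76 (0.0663) for Nsdhl, 0.89 (0.0872) for Fdft1, 0.69 (0.18) for Mvk, 0.81 (0.216) for Cyp51, 0.42 (0.324) for Tm7sf2, 0.15 (0.79) for Sc4mol and -0.50 (0.0612) for Ebp. Leaving out 1 array ended the calls of Cyp51 (without Th9 array 3 or Treg array 1 or 2; adjusted p up to 0.0649), Sc4mol (without Th9 array 2 or 3 or Treg array 1 or 2; up to 0.162), Tm7sf2 (without Th9 array 3; 0.0556) and Ebp (without Th9 array 1 or 2 or any Treg array; up to 0.151). It also ended that of Sc5d between Th2 and Treg cells, without Treg array 1 or 2 (up to 0.0661).

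Promoters of these genes are shown because so many enzymes moved together. RefSeq promoter sequences of build GRCm38.p6, from 250 bases before to 50 bases after each annotated start, matched 27 of the 35 members, and those of Fdps, Fdft1, Sqle, Stard4, Scd1, Scd2, Fads1 and Abcg1 were not matched. Both strands were searched for 4 motifs: the core of the sterol response element, TCACNCCAC, where SREBPs bind, the NF-Y box CCAAT and the Sp1 box GGGCGG, which are bound by partners of SREBPs, and the E-box CACGTG. The 250 bases before the start of 6 genes follow, in the direction of transcription, with every match in capitals.
Hmgcs1, chr13:119690101-119690350, plus strand: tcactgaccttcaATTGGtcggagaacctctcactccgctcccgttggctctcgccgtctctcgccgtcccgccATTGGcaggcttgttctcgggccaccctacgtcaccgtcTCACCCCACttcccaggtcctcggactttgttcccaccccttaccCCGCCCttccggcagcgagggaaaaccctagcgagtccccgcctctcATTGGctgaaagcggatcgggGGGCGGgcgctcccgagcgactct
Hsd17b7, chr1:169969206-169969455, minus strand: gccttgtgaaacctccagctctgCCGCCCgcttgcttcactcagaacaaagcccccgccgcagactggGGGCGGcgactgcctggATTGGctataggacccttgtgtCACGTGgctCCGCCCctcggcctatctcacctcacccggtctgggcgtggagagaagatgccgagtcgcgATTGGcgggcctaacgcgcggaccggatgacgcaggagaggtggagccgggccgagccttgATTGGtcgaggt
Mvd, chr8:122443423-122443672, minus strand: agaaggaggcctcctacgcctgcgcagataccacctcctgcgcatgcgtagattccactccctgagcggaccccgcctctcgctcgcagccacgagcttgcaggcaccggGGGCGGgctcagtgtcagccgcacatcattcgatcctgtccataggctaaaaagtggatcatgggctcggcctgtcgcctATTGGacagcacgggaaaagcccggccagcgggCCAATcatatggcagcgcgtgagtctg
Insig1, chr5:28071162-28071411, plus strand: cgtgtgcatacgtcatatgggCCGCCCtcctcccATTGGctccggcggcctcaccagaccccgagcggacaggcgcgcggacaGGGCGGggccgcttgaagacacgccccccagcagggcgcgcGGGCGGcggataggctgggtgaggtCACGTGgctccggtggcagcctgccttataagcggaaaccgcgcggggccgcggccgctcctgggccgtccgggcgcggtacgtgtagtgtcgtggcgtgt
Fasn, chr11:120824548-120824797, minus strand: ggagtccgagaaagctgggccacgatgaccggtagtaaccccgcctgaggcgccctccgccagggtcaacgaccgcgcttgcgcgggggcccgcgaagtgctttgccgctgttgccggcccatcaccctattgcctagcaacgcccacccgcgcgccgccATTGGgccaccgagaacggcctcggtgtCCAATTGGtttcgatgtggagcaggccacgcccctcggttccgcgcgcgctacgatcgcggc
Abca1, chr4:53159896-53160145, minus strand: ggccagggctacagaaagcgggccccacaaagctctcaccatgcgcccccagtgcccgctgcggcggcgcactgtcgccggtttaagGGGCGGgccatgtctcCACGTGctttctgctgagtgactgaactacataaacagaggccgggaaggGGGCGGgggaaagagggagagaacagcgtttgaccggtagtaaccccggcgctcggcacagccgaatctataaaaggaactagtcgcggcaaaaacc

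Hmgcs1 was the only one of the 14 matched sterol enzyme genes with the sterol response element core, as TCACCCCAC, and 1.44% of 27025 genes with a promoter in the same table had it. The NF-Y box stood in a promoter of all 14 (in 41.1% of all genes), the Sp1 box in 13 (38.2%) and the E-box in 3 (8.09%). Among the other members the NF-Y box was found in 4 of 5 sensing and transport genes and 4 of 7 fatty acid genes, and the Sp1 box in 5 of 5 and 3 of 7. Fasn had 3 NF-Y matches in the printed sequence, a pair of which overlap on opposite strands, and Abca1 had the Sp1 box and the E-box but not the NF-Y box. These are matches of letters in a short window, and genes with several annotated starts were counted when any of their promoters held the motif.

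The genes that sense and carry sterols mostly moved with the enzymes. Insig1, Insig2, Srebf1 and Stard4 were higher in Th9 and in Th2 cells than in Treg cells, 4 of 6 in each comparison, while Scap was lower in Th9 cells. Of all genes, 28.1% were called higher for Th9 minus Treg and 28.6% for Th2 minus Treg, with 36.2% and 34.5% lower. Insig1, which retains Scap and is itself an SREBP target, had levels of -1.53, -1.72 and -1.52 on Th9 arrays and -1.32, -0.84 and -1.12 on Th2 arrays, against -3.15, -3.59 and -2.96 on Treg arrays. All Treg arrays were lowest, and the differences were 1.64 ± 0.17 (adjusted p = 1.07e-05) and 2.14 ± 0.17 (adjusted p = 1.55e-06). Stard4, a carrier of cholesterol between membranes, had levels of 1.46, 1.51 and 1.29 on Th9 arrays and 1.73, 1.70 and 1.43 on Th2 arrays, against -0.27, -0.47 and -0.13 on Treg arrays. These groups did not overlap either, and Stard4 differed by 1.71 ± 0.15 (adjusted p = 3.4e-06) and 1.90 ± 0.15 (adjusted p = 1.59e-06).

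Srebf1 was higher by 1.05 ± 0.09 in Th9 cells (adjusted p = 3.65e-06) and by 1.13 ± 0.09 in Th2 cells (adjusted p = 2.11e-06), and Insig2, the relative of Insig1 that is not an SREBP target in the same way, by 0.82 ± 0.14 and 0.78 ± 0.14. With the slide as a block all 4 stayed called in both comparisons. Scap averaged 3.71 ± 0.08 (SD, n = 3) in Th9 cells and 3.84 ± 0.06 in Th2 cells, against 4.02 ± 0.09 in Treg cells. Its difference was -0.31 ± 0.10 for Th9 minus Treg (adjusted p = 0.0154) and -0.18 ± 0.10 for Th2 minus Treg (adjusted p = 0.118), and the slide block moved the first to -0.19 (adjusted p = 0.391). Srebf2 was called in none of the 4 comparisons. Its differences on the brightest of 4 probes were -0.26 ± 0.13 (interval -0.54 to 0.02) for Th9 minus Treg and 0.06 ± 0.13 for Th2 minus Treg. Under quantile normalization and in the authors' deposited table it was called lower for Th9 minus Treg (-0.36 and -0.35). The same held for Th9 stim minus Th9 (-0.55 and -0.54). Normexp background correction called it lower for Th9 stim minus Th9 (-0.28) and for Th9 minus Th2 (-0.41). The mean of its probes was called higher for Th2 minus Treg (0.55, adjusted p = 0.0051). A pair of dimmer Srebf2 probes was called higher in Th9 than in Treg cells (0.71 and 0.49) and in Th2 than in Treg cells (0.77 and 1.09).

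Fatty acid genes were likewise mostly higher in the helper cultures. Of the 10 genes 6 were higher and 1 was lower in Th9 cells, and 6 were higher and 1 lower in Th2 cells, both against Treg cells, with medians of 0.70 and 0.94. Over all genes 28.1% were called higher and 36.2% lower for Th9 minus Treg, and 28.6% and 34.5% for Th2 minus Treg. The desaturases Fads2 and Scd2 gave the largest differences among the 10. Fads2, which starts the conversion of essential to longer polyunsaturated fatty acids, had levels of 0.24, 0.19 and 0.82 on Th9 arrays and 0.65, 1.06 and 1.26 on Th2 arrays, against -2.10, -2.76 and -2.29 on Treg arrays. All Treg arrays were lowest, and the differences were 2.80 ± 0.23 (adjusted p = 2.11e-06) and 3.37 ± 0.23 (adjusted p = 5.82e-07), the second a 10.4-fold difference. Scd2, a stearoyl-CoA desaturase that makes monounsaturated fatty acids, had levels of 6.53, 6.50 and 6.71 on Th9 arrays and 6.63, 6.50 and 6.48 on Th2 arrays, against 4.43, 4.32 and 5.12 on Treg arrays. Treg array 3 was the highest Treg array without reaching the others, and the differences were 1.96 ± 0.19 (adjusted p = 6.94e-06) and 1.91 ± 0.19 (adjusted p = 8.06e-06). Scd1 and Scd2 are similar in sequence, so their probes may share transcripts.

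Fads1, the partner desaturase of Fads2, was higher by 1.35 ± 0.23 and 1.27 ± 0.23, and Acsl3, which activates fatty acids with CoA, by 1.05 ± 0.18 and 1.79 ± 0.18. Scd1 and Elovl6, which lengthens saturated chains, were called for Th9 minus Treg (0.88 ± 0.21, adjusted p = 0.00374, and 0.52 ± 0.18, adjusted p = 0.0257). For Th2 minus Treg the values were 0.29 ± 0.21 (adjusted p = 0.256) and 0.39 ± 0.18 (adjusted p = 0.0805). Acly, which makes cytosolic acetyl-CoA from citrate, and Fasn, fatty acid synthase, were called only for Th2 minus Treg, at 1.15 ± 0.11 (adjusted p = 4.83e-06) and 0.72 ± 0.21 (adjusted p = 0.0125). For Th9 minus Treg they gave 0.25 ± 0.11 (adjusted p = 0.057) and 0.17 ± 0.21 (adjusted p = 0.498). The Acly call for Th2 minus Treg ended with the mean of its probes (0.62, adjusted p = 0.0911), since a dim second probe gave 0.09 ± 0.52, and that of Fasn ended with quantile normalization (0.54, adjusted p = 0.052). Acly was called higher for Th9 minus Treg with quantile normalization (0.27, adjusted p = 0.0377) and with median scaling (0.32, adjusted p = 0.0287). Acaca, acetyl-CoA carboxylase, which commits carbon to fatty acids, was called in neither (0.05 ± 0.17 and 0.34 ± 0.17). Of its 4 probes 1, a dimmer one, was called lower in both (-0.85 ± 0.14 and -0.55 ± 0.14), and the others in neither.

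Elovl5, which lengthens polyunsaturated chains, went the opposite way. Its levels were 3.30, 3.15 and 3.62 on Th9 arrays and 3.73, 3.79 and 3.77 on Th2 arrays, against 4.17, 4.18 and 4.50 on Treg arrays. Every Th9 and Th2 array lay below every Treg array, and the differences were -0.93 ± 0.16 (adjusted p = 0.000553) for Th9 minus Treg and -0.52 ± 0.16 (adjusted p = 0.0179) for Th2 minus Treg. With the slide as a block 4 of the 7 fatty acid calls between Th9 and Treg cells remained, those of Fads2 (2.70), Scd2 (2.06), Acsl3 (1.16) and Elovl5 (-1.42). Fads1 then stood at 1.18 (adjusted p = 0.0735), Scd1 at 0.25 (adjusted p = 0.573) and Elovl6 turned to -0.22 (adjusted p = 0.446). The Elovl6 call also ended without Th9 array 2 or 3 or Treg array 1 (adjusted p up to 0.0886). Between Th2 and Treg cells the block ended the calls of Fasn (0.69, adjusted p = 0.0909) and Elovl5 (-0.40, adjusted p = 0.139; adjusted p = 0.0658 without Treg array 3) and added Elovl6 (0.55, adjusted p = 0.0212).

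**Figure D2:**
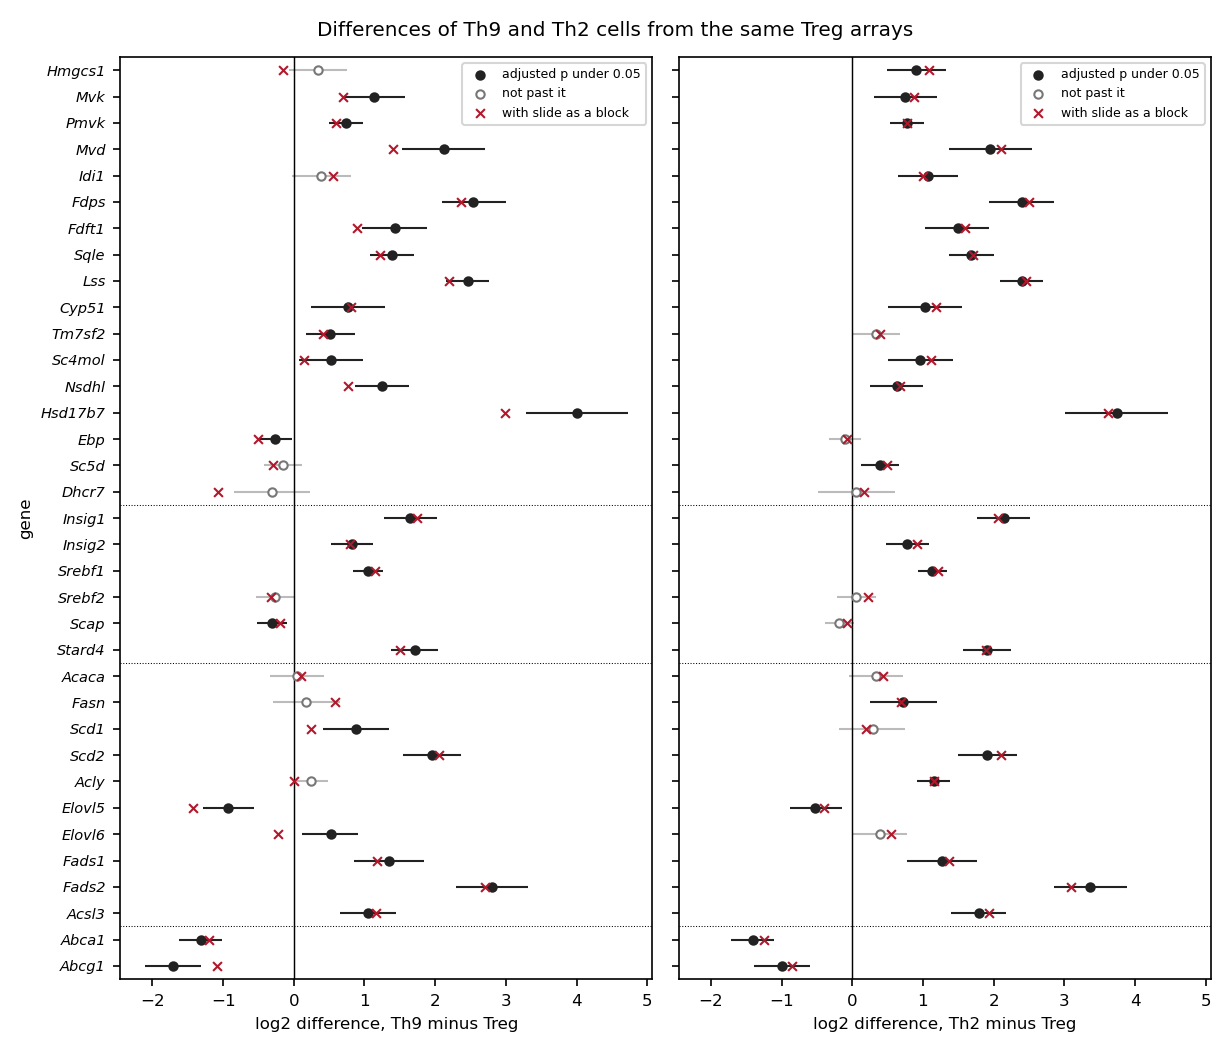
Points are log2 differences with 95% intervals for Th9 minus Treg (left) and Th2 minus Treg (right), filled where the adjusted p is under 0.05, and red crosses are the same differences with the slide as a block. Hsd17b7 (4.01 and 3.74) and Fads2 (2.80 and 3.37) lie far to the right in both panels, while Abca1, Abcg1 and Elovl5 lie left of 0 in both.

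Both LXR-controlled exporters were lower in the helper cultures than in Treg cells. Abca1, which loads cholesterol onto lipid-poor apolipoproteins, had levels of -2.63, -2.71 and -2.62 on Th9 arrays and -2.85, -2.94 and -2.44 on Th2 arrays, against -1.49, -1.23 and -1.29 on Treg arrays. Abcg1, which passes cholesterol to lipoprotein particles, had 1.19, 1.37 and 1.37 on Th9 arrays and 2.12, 1.98 and 1.99 on Th2 arrays, against 2.87, 3.06 and 3.12 on Treg arrays. For both genes the Treg arrays were highest without overlap. The differences were -1.31 ± 0.14 (adjusted p = 1.25e-05) for Abca1 and -1.71 ± 0.18 (adjusted p = 1.29e-05) for Abcg1 in Th9 minus Treg, and -1.40 ± 0.14 (adjusted p = 7.43e-06) and -0.99 ± 0.18 (adjusted p = 0.000642) in Th2 minus Treg. All 4 calls held under the slide block, where the values lay between -1.25 and -0.85.

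Of 6 further LXR genes 3 were lower and 2 higher in Th9 cells, and 3 were lower and 2 higher in Th2 cells, both against Treg cells, beside the shares over all genes given above. The higher ones were Lpcat3, an LXR-induced enzyme that remodels phospholipids (0.79 ± 0.16, adjusted p = 0.00125, and 0.73 ± 0.16, adjusted p = 0.00209), Nr1h2, which encodes LXRβ, for Th9 minus Treg (0.39 ± 0.15, adjusted p = 0.0444) and Rxra, the partner receptor of LXRs, for Th2 minus Treg (0.97 ± 0.23, adjusted p = 0.00395). Smpdl3a, a phosphodiesterase induced by LXR, differed by -4.55 ± 0.14 (adjusted p = 3.39e-09) in Th9 minus Treg and by -4.84 ± 0.14 in Th2 minus Treg. Mylip, which targets lipoprotein receptors for degradation, differed by -2.59 ± 0.27 and -2.25 ± 0.27, and Nr1h3, which encodes LXRα, by -1.12 ± 0.14 and -1.40 ± 0.14. Several of these genes are also strongly expressed by myeloid cells, and the part of the myeloid and B cell signal on the Treg arrays in these differences was not tested.

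After 6 h of anti-CD3 most sterol enzymes were lower in Th9 cells, while Acaca and Fasn, which build fatty acid chains, were higher. In Th9 stim compared with Th9 cells 10 of 17 sterol enzymes fell and 2 rose, where 32% of all genes were called lower and 31.9% higher (64% in all). The median of the 17 was -0.83, and that of all genes -0.02. Mvd showed the largest fall among them, with levels of -0.26, 0.07 and 0.54 on Th9 stim arrays against 2.54, 2.61 and 2.87 on Th9 arrays. The groups were far apart, at -2.56 ± 0.26 (SE; adjusted p = 9.58e-06). Mvk had -1.80, -1.49 and -1.27 on Th9 stim arrays and 0.27, 0.09 and 0.36 on Th9 arrays, and Pmvk had 2.85, 2.98 and 3.05 on Th9 stim arrays and 4.45, 4.25 and 4.19 on Th9 arrays. Neither gene's groups overlapped, and their differences were -1.77 ± 0.20 (adjusted p = 1.93e-05) and -1.34 ± 0.11 (adjusted p = 1.69e-06).

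The other enzymes that fell were Fdps (-1.31 ± 0.21), Nsdhl (-1.11 ± 0.17), Sc4mol (-0.90 ± 0.20), Lss (-0.89 ± 0.14), Tm7sf2 (-0.87 ± 0.15), Dhcr7 (-0.83 ± 0.24) and Hmgcs1 (-0.74 ± 0.19), with adjusted p-values of at most 0.0118. Of the 4 Nsdhl probes 1 was called in the opposite direction (0.52 ± 0.18, adjusted p = 0.026). Idi1 rose instead. Its levels were 2.95, 3.25 and 2.97 on Th9 stim arrays and 1.69, 1.62 and 2.13 on Th9 arrays, a difference of 1.24 ± 0.19 (adjusted p = 0.000169). A second, dimmer Idi1 probe gave 1.43 ± 0.12. The array's design and the gene table used here place the Idi1 probes on different chromosomes, so near-identical copies may contribute. Sc5d rose slightly (0.32 ± 0.12, adjusted p = 0.037), but its second probe fell (-0.87 ± 0.14). The 5 enzymes not called were Fdft1 (-0.45 ± 0.21, adjusted p = 0.0776), Cyp51 (0.29 ± 0.24), Sqle (-0.14 ± 0.14), Hsd17b7 (-0.11 ± 0.33) and Ebp (-0.09 ± 0.10). With quantile normalization Fdft1 (-0.59), Sqle (-0.35) and Ebp (-0.38) were called lower. The authors' deposited table gave the same calls (adjusted p up to 0.0492). Fdft1 was also called lower with normexp background correction (-0.5) and with a replicate block. The Sc5d rise was not called with quantile normalization (0.13), the deposited table (0.15), no filter on dim probes or only the arrays compared.

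Th9 stim array 3, on the slide of the Th9 arrays, lay nearer to them than its replicates did. The 17 enzymes averaged 1.91 on that array, 1.53 and 1.67 on the other Th9 stim arrays, and 2.26 to 2.55 on the Th9 arrays. Within slide 3, that array against the 3 Th9 arrays gave a median of -0.48 with 12 of 17 differences negative. These values are also the estimates with the slide as a block, under which 7 enzymes were called lower and Idi1 higher (1.15, adjusted p = 0.00989). Mvd (-2.13), Mvk (-1.52), Pmvk (-1.25), Fdps (-1.23), Tm7sf2 (-0.83), Nsdhl (-0.79) and Lss (-0.74) kept their call. Sc4mol (-0.70, adjusted p = 0.0783), Hmgcs1 (-0.48, 0.136), Dhcr7 (-0.36, 0.359) and Sc5d (0.39, 0.107) lost it. Without Th9 stim array 1 the adjusted p of Dhcr7 was 0.0504, and leaving out any of 4 arrays, Th9 arrays 1 and 2 or Th9 stim arrays 2 and 3, ended the Sc5d call (adjusted p up to 0.112).

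Among the 6 sensing and transport genes 2 were higher and 3 lower after restimulation, where 31.9% of all genes were called higher and 32% lower. Scap had levels of 4.98, 4.90 and 4.77 on Th9 stim arrays and 3.64, 3.80 and 3.69 on Th9 arrays. All Th9 stim arrays were higher, by 1.18 ± 0.10 (adjusted p = 1.67e-06). Insig2 had 0.28, 0.29 and 0.24 on Th9 stim arrays and 1.64, 1.74 and 1.41 on Th9 arrays, and fell by 1.33 on the log2 scale (SE 0.14, adjusted p = 9.26e-06). Stard4 (-1.28 ± 0.15) and Srebf1 (-0.61 ± 0.09, adjusted p = 0.000172) fell as well. Srebf2 was not called (-0.27 ± 0.13, interval -0.55 to 0.01). Insig1 rose on its brighter probe (0.56 ± 0.17, adjusted p = 0.013) and fell on the other (-0.39 ± 0.13, adjusted p = 0.0242), so its direction is uncertain. With the slide as a block Scap (1.07), Insig2 (-1.35), Stard4 (-1.13) and Srebf1 (-0.71) stayed called, and Insig1 did not (0.53, adjusted p = 0.123).

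Among the 10 fatty acid genes 2 rose and 6 fell after restimulation, where 31.9% of all genes were called higher and 32% lower. The median of the 10 was -1.11. Fasn had levels of 7.28, 7.16 and 6.82 on Th9 stim arrays and 4.52, 4.98 and 5.40 on Th9 arrays, and Acaca had 0.51, 0.53 and 0.41 on Th9 stim arrays and -1.66, -1.24 and -1.0 on Th9 arrays. These groups did not overlap. Fasn rose by 2.13 ± 0.21 (adjusted p = 7.74e-06), a 4.36-fold difference, and Acaca by 1.78 ± 0.17 (adjusted p = 6.05e-06), a 3.44-fold difference. Acly, the step before them, was not called (0.16 ± 0.11, interval -0.08 to 0.39). The 4 desaturases and 2 elongases among the members fell. Scd1 had -0.78, -0.32 and 0.13 on Th9 stim arrays and 1.66, 1.60 and 2.03 on Th9 arrays, a difference of -2.09 ± 0.21 (adjusted p = 7.78e-06). Fads1 (-1.52 ± 0.23), Fads2 (-1.29 ± 0.23), Elovl6 (-1.21 ± 0.18), Scd2 (-1.19 ± 0.19) and Elovl5 (-1.03 ± 0.16) fell with adjusted p-values of at most 0.000521, and Acsl3 was not called (0.20 ± 0.18). All 8 calls held with the slide as a block and without any 1 array. The blocked values were 1.85 for Fasn, 1.71 for Acaca and -1.63 for Scd1.

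**Figure D3:**
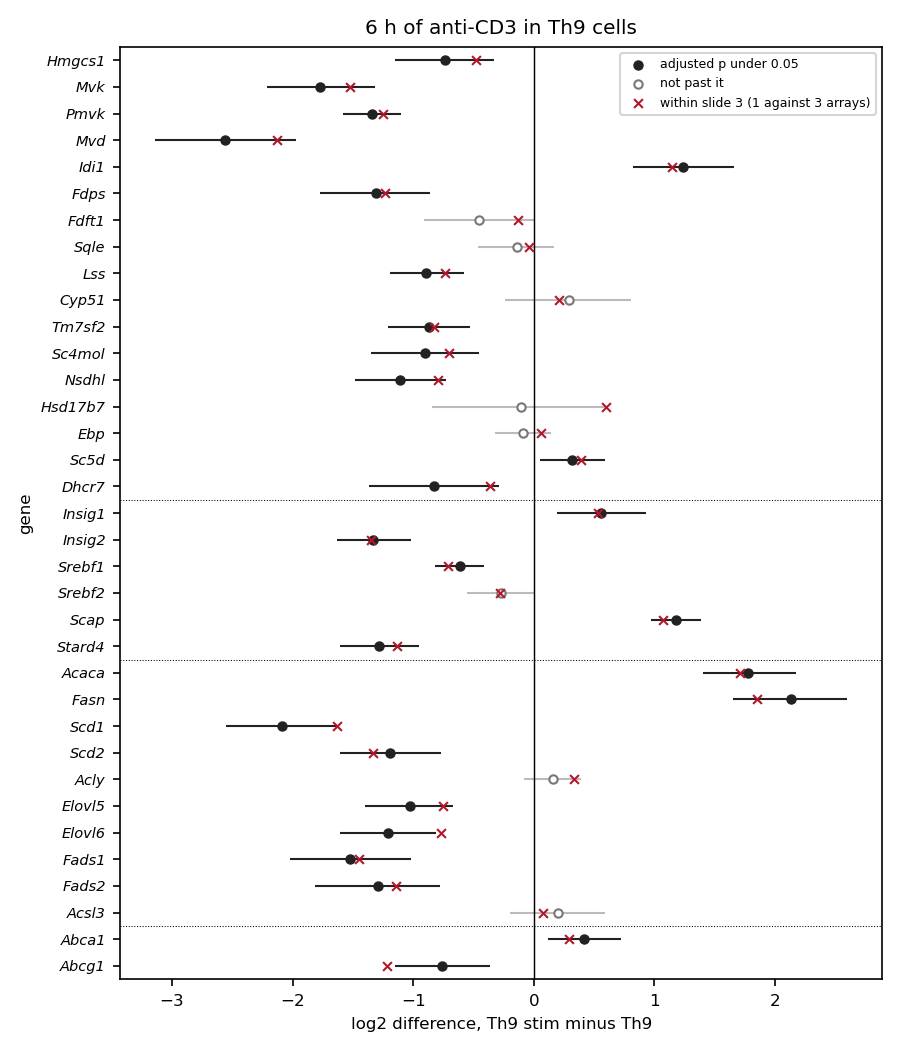
Points are log2 differences, Th9 stim minus Th9, with 95% intervals, filled where the adjusted p is under 0.05, and red crosses compare Th9 stim array 3 with the 3 Th9 arrays of the same slide. Fasn (2.13), Acaca (1.78), Idi1 (1.24) and Scap (1.18) lie right of 0, and Mvd (-2.56), Scd1 (-2.09) and Mvk (-1.77) farthest left.

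The exporters went separate ways. Abca1 had -2.21, -2.12 and -2.36 on Th9 stim arrays and -2.63, -2.71 and -2.62 on Th9 arrays, a rise of 0.42 ± 0.14 (adjusted p = 0.0201). That call was lost under the slide block (0.29, adjusted p = 0.236) and without Th9 array 2 or Th9 stim array 1 or 2 (adjusted p up to 0.0711). Abcg1 had 0.67, 0.91 and 0.09 on Th9 stim arrays and 1.19, 1.37 and 1.37 on Th9 arrays, a difference of -0.76 ± 0.18 (adjusted p = 0.00348), and its blocked value was -1.22 (adjusted p = 0.000245). Of the 6 further LXR genes 4 fell and 1 rose, among them Smpdl3a (-2.24 ± 0.14), Mylip (-0.88 ± 0.27) and Rxra (2.84 ± 0.23, adjusted p = 1.83e-06). B cell markers were lower in Th9 stim than in Th9 cells for 6 of 10, with a mean level of -5.05 to -3.99 on Th9 stim arrays and -3.01 to -2.60 on Th9 arrays. Over all genes 32% were called lower and 31.9% higher. The part of the B cell signal in these differences was not tested.

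**Figure D4:**
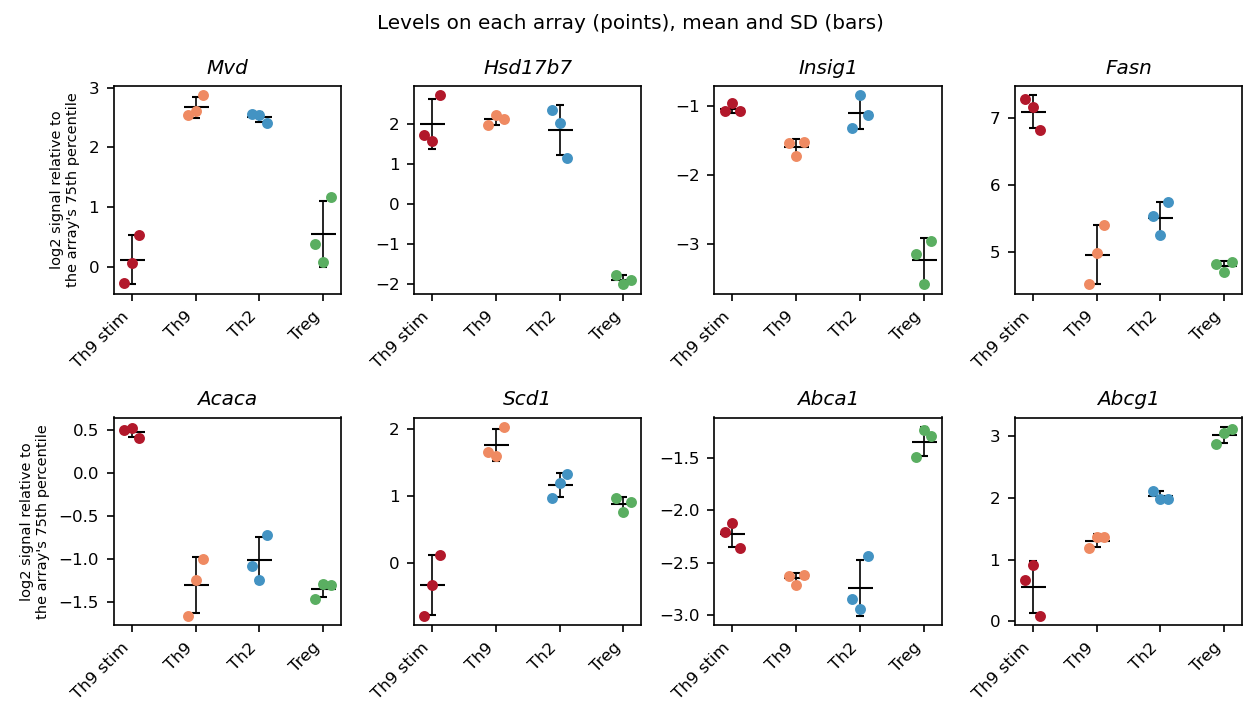
Points are the log2 levels of 8 genes on each array, relative to the array's 75th percentile, and bars are the mean and SD of 3 arrays. The axis of each panel has its own range. On average Mvd and Scd1 are lowest in Th9 stim cells, Hsd17b7 and Insig1 in Treg cells, Fasn and Acaca are highest in Th9 stim cells, and Abca1 and Abcg1 in Treg cells.

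Th9 and Th2 cells were much closer to each other. Their cultures differed by TGF-β, and a further addition of IL-4 at expansion is described for Th9 cultures only. Of the 35 members 6 were called, where 7.91% of all genes were called higher and 9.18% lower (17.1% in all). Acly had the clearest difference, with levels of 0.96, 1.21 and 1.15 on Th9 arrays against 2.08, 2.01 and 1.93 on Th2 arrays. The groups did not overlap, the log2 difference was -0.90 ± 0.11 (adjusted p = 0.000355), and the call held without any 1 array and under the slide block (-1.17, adjusted p = 0.0499). Acsl3 (-0.74 ± 0.18, adjusted p = 0.0181) and Abcg1 (-0.72 ± 0.18, adjusted p = 0.0216) were lower too, with Abcg1 levels of 1.19 to 1.37 on Th9 arrays and 1.98 to 2.12 on Th2 arrays.

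Of the 17 sterol enzymes 1 was higher and 2 were lower in Th9 cells against Th2 cells, with a median of -0.06. Nsdhl had 0.78, 0.27 and 0.48 on Th9 arrays and -0.24, -0.15 and 0.04 on Th2 arrays (0.62 ± 0.17, adjusted p = 0.0303). Idi1 had 1.69, 1.62 and 2.13 on Th9 arrays and 2.42, 2.40 and 2.65 on Th2 arrays (-0.67 ± 0.19, adjusted p = 0.0339), and Sc5d had 2.03, 2.05 and 2.25 on Th9 arrays and 2.69, 2.62 and 2.65 on Th2 arrays (-0.54 ± 0.12, adjusted p = 0.0131). These groups did not overlap. The enzymes with the largest differences between helper and Treg cells gave small ones here, at 0.27 ± 0.33 (interval -0.46 to 1.00) for Hsd17b7, 0.15 ± 0.21 (-0.31 to 0.60) for Fdps, 0.06 ± 0.14 (-0.24 to 0.36) for Lss and 0.17 ± 0.26 (-0.42 to 0.75) for Mvd. Hmgcs1 just missed the threshold (-0.57 ± 0.19, adjusted p = 0.0606). None of the 6 sensing and transport genes was called by limma (2 at an unadjusted p under 0.05, Insig1 at -0.50 ± 0.17 and Srebf2 at -0.32 ± 0.13).

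Most of these 6 calls depended on single arrays or on the slide. The slide block left that of Acly, with values of 0.09 (adjusted p = 0.959) for Nsdhl, -0.44 (0.786) for Idi1, -0.78 (0.276) for Sc5d, -0.79 (0.493) for Acsl3 and -0.23 (0.78) for Abcg1. Idi1 and Abcg1 each lost the call without any 1 of the 3 Th2 arrays or of Th9 arrays 1 and 2 (adjusted p up to 0.118 and 0.0728), Nsdhl without Th2 array 1 or 2 or Th9 array 1 or 3 (up to 0.103), Acsl3 without Th2 array 3 or Th9 array 1 or 2 (up to 0.0689) and Sc5d without Th9 array 2 (0.0519). With the mean of each gene's probes the calls of Sc5d (-0.13, adjusted p = 0.511) and Nsdhl (0.41, adjusted p = 0.0779) ended too, and Hmgcs1 was called lower (-0.72, adjusted p = 0.0175). Without Th9 array 3, 4 of the 10 fatty acid genes were called lower, where all arrays gave 2, and Fasn (-0.77, adjusted p = 0.0295) and Fads2 (-0.77, adjusted p = 0.0498) were the additions. Among the fatty acid genes not called with all arrays were Fasn (-0.55 ± 0.21), Fads2 (-0.57 ± 0.23) and Scd1 (0.59 ± 0.21, adjusted p = 0.0785). Of the 10 B cell markers 4 were called higher in Th9 cells against Th2 cells, where 7.91% of all genes were called higher. The part of these markers was not tested.

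**Figure D5:**
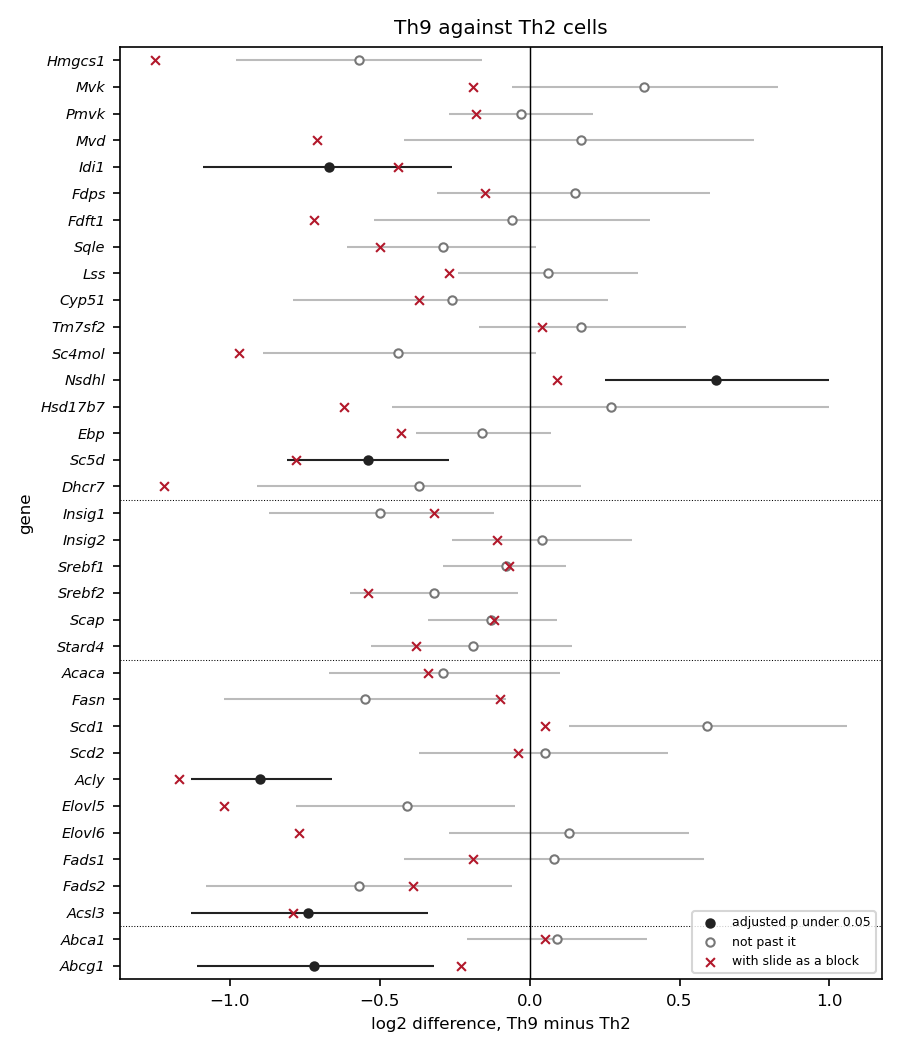
Points are log2 differences, Th9 minus Th2, with 95% intervals, filled where the adjusted p is under 0.05, and red crosses are the differences with the slide as a block. Every point lies within 1 of 0, and Acly (-0.90) is the member whose call also held with the block.

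Genes beyond the 35 members, taken from lists of the same pathways, gave these counts, beside the shares over all genes given above. Of 12 further sterol genes compared with Treg cells 6 were higher and 3 lower in Th9 cells and 6 were higher and 3 lower in Th2 cells, and 2 were higher and 3 lower in Th9 stim than in Th9 cells. Soat1, which esterifies cholesterol for storage, was higher in Th9 cells compared with Treg cells (1.85 ± 0.16, adjusted p = 3.34e-06), higher in Th9 cells compared with Th2 cells as well (0.86 ± 0.16, adjusted p = 0.00554) and fell after restimulation (-1.73 ± 0.16). Mbtps2, a protease that releases active SREBP, rose after restimulation (2.19 ± 0.22), and Npc1, which exports cholesterol from lysosomes, fell (-1.85 ± 0.20). Of 14 tested further fatty acid genes 8 were higher and 1 lower in Th9 cells against Treg cells, and 5 rose and 5 fell after restimulation. Me1, malic enzyme, which supplies reducing power for fatty acid synthesis, was not well above background on any Treg array and was at least 10.3-fold higher in Th9 cells (adjusted p = 4.05e-06), with a bound of at least 8.84-fold higher for Th2 cells (adjusted p = 5.53e-06). Gpam, which starts the assembly of glycerolipids, was higher in Th9 cells compared with Treg cells by 3.19 ± 0.37 and was above background on 1 of 3 Treg arrays. After restimulation Acss2, which makes acetyl-CoA from acetate, fell by 3.67 on the log2 scale (SE 0.24, adjusted p = 4.61e-07), while Hsd17b12, a reductase of chain elongation, rose by 1.45 ± 0.12 and Elovl1, a further elongase, by 1.41 ± 0.10 (adjusted p = 6.47e-07). Elovl7 was not called (-0.66, adjusted p = 0.064).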

How the data were processed

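Each array was a one-colour Agilent 4x44K array hybridised with Cy3-labelled RNA. Per the file headers, spot intensity was extracted by Agilent Feature Extraction 10.5.1.1 with background subtraction, and no normalization between arrays had been applied. The authors' deposited table of the series holds log2 values whose column medians lie between 5.171 and 5.174 and whose correlation with the logged processed signal, array by array, is at least 0.99958. It was used as an alternative, and how it was made is not given in the sources used here.

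From the scanner values, log2 of the processed signal minus the array's 75th percentile was taken. Outlier-flagged spots were dropped, and repeated spots of a probe averaged. Probes well above background on at least 3 of 12 arrays were kept, and each gene was represented by the kept probe with the highest mean. The 35 members have 66 probes, of which 65 were kept, and 15 members have a single probe. Of 41174 probes 24375 were named by RefSeq accession, 6301 by symbol and 2426 by an older symbol through a GRCm38.p6 gene table, and 8072 kept the name of the design.

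All 12 arrays were fitted with limma 3.58.1 in R 4.3.3 (1 mean per group, lmFit and eBayes), with Benjamini-Hochberg adjustment over all genes in each of 4 comparisons and a threshold of 0.05. The steps were tested on simulated data. Errors of levels are SD, errors of differences are SE, and n is 3 arrays per group, a number that limits the precision. A fold against a group below background is set against the lowest signal well above background on each array, or the probe's own if higher. The members, the lists and the motifs were chosen with earlier results of these data known. All 35 members are named. From further lists of sterol, fatty acid, LXR and fatty acid oxidation genes, and from cell cycle and cell type marker lists, counts are given with a few called genes. Alternatives were normexp background correction, quantile and median scaling, no filter and a stricter filter on dim probes, the mean of a gene's probes, only the arrays compared, the slide as a fixed or random block, a replicate block, the deposited log2 table and leaving out each array.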

Additional observations from a re-analysis of the deposited data

How the results depend on the processing

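The counts of called sterol enzymes and fatty acid genes stayed within 1.5 times the reported ones under every alternative run, except as follows. Between Th9 and Th2 cells the sterol count was 3, and it was 1 with no filter on dim probes and 0 with the slide as a block. The fatty acid count was 2 there, and it was 5 with normexp background correction and 1 with the slide block. Between Th9 and Treg cells the slide block gave 5 sterol enzymes (13 reported) and 4 fatty acid genes (7 reported). The block also lowered the calls over all genes to 326 from 3064 between Th9 and Th2 cells, and to 6759 from 11521 between Th9 and Treg cells. With the slide as a random block (consensus correlation -0.003) no count of the 35 members changed. With so small a correlation this fit is nearly the same as the fit without a block, so it cannot show whether the slide matters. Leaving out single arrays gave 1 to 3 sterol and 1 to 4 fatty acid calls for Th9 minus Th2, 10 to 14 and 6 to 8 for Th9 minus Treg, 11 to 12 and 8 for Th9 stim minus Th9, and 13 to 14 and 6 to 7 for Th2 minus Treg. Over all genes it gave as few as 1807 calls for Th9 minus Th2, without Th9 array 2. Called members that changed sign were Elovl6 for Th9 minus Treg with the slide block (-0.22) and Sc5d with the mean of its probes, for Th9 stim minus Th9 (-0.27) and Th2 minus Treg (-0.26). The cause was not tested. Calls of members were also lost with median scaling (Ebp and Scap for Th9 minus Treg, at -0.19 and -0.24, and Elovl5 for Th2 minus Treg, at -0.40), with no filter on dim probes or with only the arrays compared (Ebp and Sc4mol for Th9 minus Treg, adjusted p up to 0.0941), and with the mean of its probes for Insig1 in Th9 stim minus Th9 (0.09). Median scaling moved the median of all genes to 0.10 from -0.02 for Th9 stim minus Th9 and to 0.01 from -0.11 for Th2 minus Treg. Arrays with the same replicate number deviated together at correlations of -0.022 to 0.411, over 0.1 in 8 of 18 pairs. Arrays with different numbers were not compared in this way, so whether the numbers pair the samples cannot be told. A replicate block gave 4, 13, 13 and 14 sterol enzymes and 3, 7, 8 and 7 fatty acid genes for Th9 minus Th2, Th9 minus Treg, Th9 stim minus Th9 and Th2 minus Treg.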

Other observations

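Most genes of fatty acid oxidation on the list used were lower after restimulation of Th9 cells. Of 12 genes limma called 8 lower and 0 higher (0 at an unadjusted p under 0.05) in Th9 stim than in Th9 cells, where 32% of all genes were called lower and 31.9% higher, and all 12 differences were negative, with a median of -0.77. Hadh, a mitochondrial dehydrogenase, differed by -1.32 ± 0.17 (SE; adjusted p = 6.04e-05), and Acads, the dehydrogenase of short chains, by -1.31 ± 0.16 (adjusted p = 3.37e-05). The mean level of the 12 genes was 1.23 to 1.74 on Th9 stim arrays and 2.24 to 2.31 on Th9 arrays. In Th9 compared with Treg cells 7 of the 12 were higher, with a median of 0.41, and Hadh differed by 1.16 ± 0.17 (adjusted p = 0.000176). In Th2 compared with Treg cells 4 were higher and 1 lower. Over all genes 28.1% were called higher for Th9 minus Treg, and 28.6% higher and 34.5% lower for Th2 minus Treg. Cpt2, which passes fatty acids to the mitochondrial matrix, was higher in Th9 than in Th2 cells by 1.05 ± 0.15 (adjusted p = 0.00116).

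Among further fatty acid genes, Elovl7, an elongase, was lower in Th9 cells than in Treg cells (-1.97 ± 0.28, adjusted p = 0.000127) and than in Th2 cells (-1.49 ± 0.28, adjusted p = 0.00579). Lpin1, a phosphatidate phosphatase, was higher in Th2 than in Treg cells (1.94 ± 0.18) and fell after restimulation (-2.19 ± 0.18, adjusted p = 1.68e-06). Among the further sterol genes, Acat2, a thiolase of cytosolic acetyl-CoA, was lower in Th9 than in Treg cells (-1.03 ± 0.15) and in Th2 than in Treg cells (-1.10 ± 0.15).

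Of 15 cell cycle genes 6 were higher and 5 lower in Th9 stim than in Th9 cells, and limma called 0 between Th9 and Th2 cells (0 at an unadjusted p under 0.05). Of 9 pan T cell markers 6 were lower in Th9 cells and 7 in Th2 cells, both against Treg cells, 1 was lower in Th9 cells against Th2 cells, and 2 higher and 3 lower in Th9 stim than in Th9 cells. Of 5 CD8 T and NK cell markers 1 was higher in Th9 cells against Treg cells and 3 were lower in Th9 stim than in Th9 cells, and of 3 mast cell and basophil markers 2 were lower in Th9 cells against Treg cells. Over all genes 28.1% were called higher and 36.2% lower for Th9 minus Treg, and 28.6% and 34.5% for Th2 minus Treg. For Th9 stim minus Th9 the shares were 31.9% and 32%, and for Th9 minus Th2 7.91% and 9.18%. The cell cycle counts for Th9 stim minus Th9 lie near these shares.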
